A study of Mus musculus with 12 samples.

Results

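The aminoacyl-tRNA synthetases are the enzymes that load each amino acid onto its transfer RNA, the first step of protein synthesis. They were taken by gene symbol, as every symbol made of 1 letter and "ars" with or without a final 1 or 2, together with Eprs, Farsa and Farsb. This gave 37 of the 13190 genes listed. The 17 symbols that end in 2 form the mitochondrial set, and the other 20 form the mainly cytosolic set. All 20 cytosolic and 16 mitochondrial members passed the filter on low values (1 FPKM or more in 3 or more libraries), so 36 were among the 12716 genes tested. Wars2, the mitochondrial tryptophanyl enzyme, did not pass it, at 0.511 to 1.10 FPKM.

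Ribosome-associated RNA was sequenced from parvalbumin interneurons, fast-spiking inhibitory cells, of mouse cortex (C57BL/6). All animals carried PV-Cre k/+ and RiboTag k/k, so that Cre expressed from the parvalbumin locus switched on an epitope-tagged ribosomal protein and tagged ribosomes could be pulled down. Wild-type and Nptx2 KO animals were each kept in groups or singly, which gave 4 groups of 3 libraries. Housing lasted at least 4 weeks from weaning, and the labels call single housing social stress. Cells in which the parvalbumin locus has been active carry the tag, whatever their type, and neither the ages nor the sexes of the animals are given in these sources. Levels are log2(FPKM + 1), where FPKM is fragments scaled to transcript length and to the mapped total of the library. In what follows the 3 libraries of a group are called A, B and C; the letters only name them and pair nothing across groups.

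In the cytosol most amino acids are handled by a synthetase of their own. Several of these enzymes are held together in a multisynthetase complex by the scaffold proteins AIMP1, AIMP2 and EEF1E1. Mitochondria charge their own transfer RNAs with a separate group of nuclear-encoded enzymes, which serve the synthesis of respiratory chain subunits. Gars and Kars each encode both a cytosolic and a mitochondrial form of their enzyme, and Eprs charges both glutamate and proline. ATF4, a transcription factor whose translation rises when amino acids are short or the initiation factor eIF2 is phosphorylated, is known to activate asparagine synthetase (Asns), amino acid transporters and many cytosolic synthetase genes.

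Nptx2, the gene named in the labels, showed no loss in the KO libraries: it stood at 2.37 to 2.74 in these 6 and at 2.23 to 2.62 in the 6 wild-type libraries. The labels do not say which part of the gene is removed, so these whole-gene values cannot check the genotype. The Y-linked gene Ddx3y was at 3.21 to 3.62 in the single-housed wild-type libraries A, B and C and in single-housed KO libraries B and C, and was listed at 0 in the other 7. Housing and Y-linked signal therefore cannot be told apart in wild type. In KO they overlap in part, because among the single-housed KO libraries only A lacked the signal. The comparison of KO with wild type in single housing is unbalanced in it too. The markers of the labelled cells were present, with Pvalb at 9.65 to 10.28 and Gad1 at 10.51 to 10.68 in the 12 libraries. Sequencing depth is unknown, because the values are not counts. Because each library pools the RNA of many cells, fewer cells of a type and less RNA per cell cannot be told apart.

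Promoters were searched for the element bound by ATF4 with a C/EBP partner, written TGATGNAAN, because synthetase genes are among its known targets. RefSeq windows (GRCm38.p6) of 250 bases before to 50 bases after the start were at hand for 27 members, 13 cytosolic and 14 mitochondrial. On either strand the motif was present in 5 of 13 cytosolic genes (38.5%), in 0 of 14 mitochondrial genes and in 3.95% of all 32851 windows. The stricter form TGATGCAAT, which is contained in the first, was present in Aars and Iars and in 0.192% of windows. The 5 cytosolic genes with a match are shown from 150 bases before to 30 bases after the start, read along the gene's own strand, with the match in capitals. Where the capitals run ATTGCATCA, ATTTCATCA, TTTTCATCA or GTTGCATCA, the element lies on the opposite strand. Qars and Aars2, in which the motif was not found, follow for comparison. They are examples only, and the motif was also not found in Farsb, Sars and Mars, among others.
Aars (chr8:111033692-111033871, plus strand): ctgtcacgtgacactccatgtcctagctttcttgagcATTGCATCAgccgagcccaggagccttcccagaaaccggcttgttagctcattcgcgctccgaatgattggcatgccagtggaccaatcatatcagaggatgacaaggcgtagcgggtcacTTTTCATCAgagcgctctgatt
Iars (chr13:49681980-49682159, plus strand): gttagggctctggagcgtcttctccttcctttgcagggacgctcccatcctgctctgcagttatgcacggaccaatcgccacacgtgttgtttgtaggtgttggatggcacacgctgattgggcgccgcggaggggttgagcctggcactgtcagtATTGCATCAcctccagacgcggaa
Yars (chr4:129189753-129189932, plus strand): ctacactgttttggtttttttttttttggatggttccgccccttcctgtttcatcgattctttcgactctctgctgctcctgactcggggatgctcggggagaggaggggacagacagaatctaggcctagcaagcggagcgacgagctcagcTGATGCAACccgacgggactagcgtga
Gars (chr6:55037851-55038030, plus strand): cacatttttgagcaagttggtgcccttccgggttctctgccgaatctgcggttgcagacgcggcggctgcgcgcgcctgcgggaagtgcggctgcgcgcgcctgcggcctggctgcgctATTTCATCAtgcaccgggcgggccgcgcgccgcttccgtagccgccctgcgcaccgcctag
Tars (chr15:11399629-11399808, minus strand): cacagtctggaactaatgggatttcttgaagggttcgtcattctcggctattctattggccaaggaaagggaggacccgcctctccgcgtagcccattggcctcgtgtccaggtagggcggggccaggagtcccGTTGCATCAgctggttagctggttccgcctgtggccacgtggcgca
Qars (chr9:108507855-108508034, plus strand): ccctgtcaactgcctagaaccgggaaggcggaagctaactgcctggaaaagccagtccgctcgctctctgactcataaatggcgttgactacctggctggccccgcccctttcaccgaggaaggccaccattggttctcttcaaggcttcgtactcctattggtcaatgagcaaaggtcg
Aars2 (chr17:45506682-45506861, plus strand): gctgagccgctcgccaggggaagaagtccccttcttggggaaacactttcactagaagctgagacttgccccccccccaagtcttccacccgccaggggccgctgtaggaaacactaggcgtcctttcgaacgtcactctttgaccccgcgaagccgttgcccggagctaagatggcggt
The alanyl gene Aars held 2 matches, the first base of one lying 113 bases before the start and that of the other at base 9. In the glycyl gene Gars and the threonyl gene Tars the match began 31 and 16 bases before the start, and in the tyrosyl gene Yars and the isoleucyl gene Iars it lay at bases 4 and 7. A match describes these letters and is not a measured binding site.

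Synthetase transcripts were well represented, over a wide span of levels. In the cytosolic set the highest mean levels were those of Nars (asparaginyl) with 216 FPKM, Gars with 205 FPKM and Sars (seryl) with 196 FPKM. The lowest were those of Lars (leucyl), Vars (valyl) and Iars (isoleucyl), with 10.7, 11.1 and 15.0 FPKM. Nars spanned 7.45 to 8.11 over the 12 libraries, Gars 7.39 to 7.95 and Sars 7.28 to 7.94 on the log2(FPKM + 1) scale, so the order among these 3 lies within their spread.

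Most mitochondrial synthetases were listed below their cytosolic counterparts. Aars2 (alanyl) and Iars2 (isoleucyl) had 19.6 and 17.4 FPKM on average, and Mars2 (methionyl), Pars2 (prolyl) and Wars2 (tryptophanyl) had 1.55, 2.39 and 0.766 FPKM. Iars2 was above the 15.0 FPKM of Iars, and Lars2 (leucyl) far above Lars, with 493 FPKM, the highest mean of all 37 members. Its annotated transcript shares 72 bases at 98.6% identity with Gm15564, a gene listed beside it. Gm15564 exceeded Lars2 by 0.31 to 0.44 on the log2 scale in each of the 12 libraries, so how much of the Lars2 value belongs to the enzyme's own message was not tested.

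**Figure D1:**
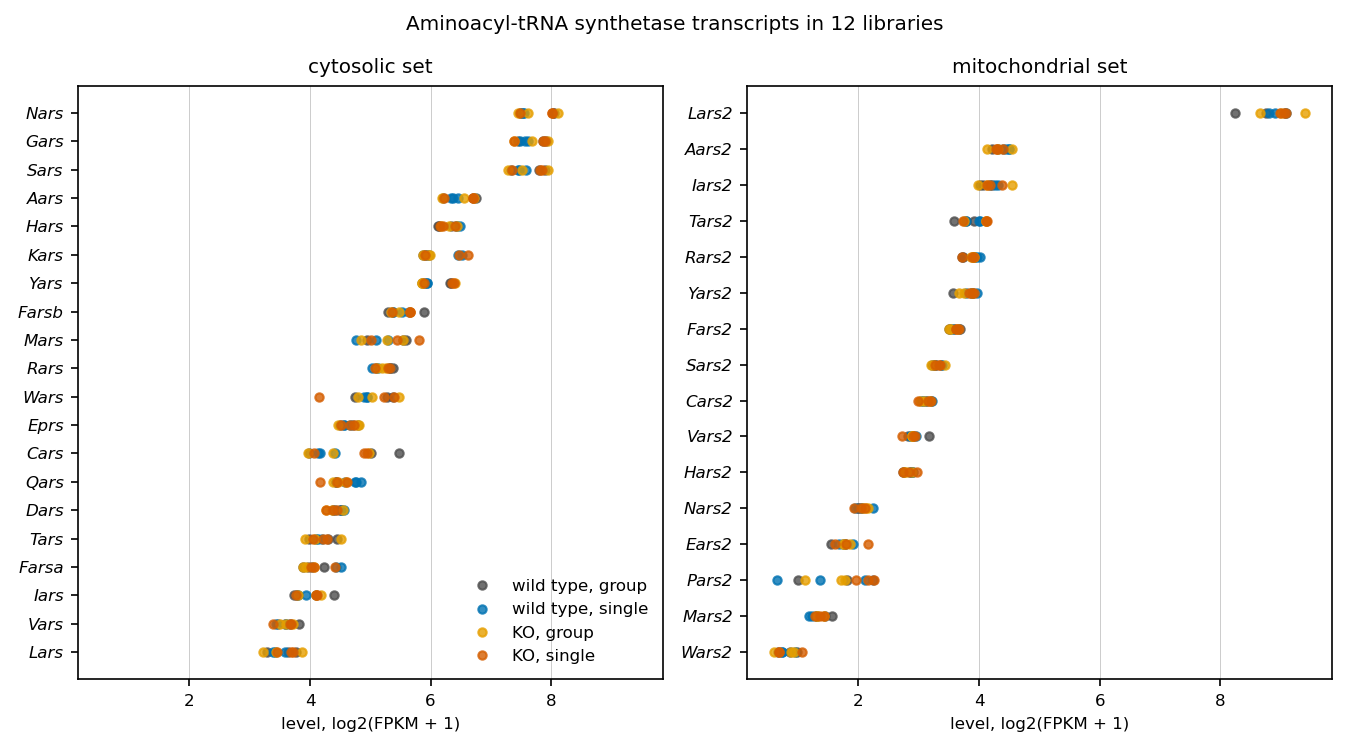
Level of the synthetases named here in each of the 12 libraries, as log2(FPKM + 1) on the horizontal axis, with 1 point per library coloured by group and genes ordered by mean FPKM; cytosolic set on the left, mitochondrial set on the right. Nars, Gars and Sars lead the cytosolic set, and Lars2 stands far above the other mitochondrial members, of which Wars2 is lowest.

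The cytosolic set varied more between libraries of the same group than the mitochondrial set did. The median within-group standard deviation (SD) was 0.222 over the 20 cytosolic genes, 0.114 over the 16 mitochondrial genes tested and 0.113 over all genes tested. The median range over the 12 libraries was 0.615, 0.409 and 0.387 in the same order. The library median, meaning the median over a set of how far each gene lay from its own mean, had a pooled within-group SD of 0.195 for the cytosolic set and 0.0412 for the mitochondrial set.

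Single members differed in how steady they were. Fars2 (phenylalanyl) was the steadiest, at 3.50 to 3.68 over the 12 libraries, followed by Sars2 (seryl) at 3.21 to 3.44, Hars2 (histidyl) at 2.74 to 2.97 and Cars2 (cysteinyl) at 2.99 to 3.22. The low-level Pars2 ran from 0.65 to 2.25 and Lars2 from 8.25 to 9.41, the latter lowest in group-housed wild type B and highest in group-housed KO A. In the cytosolic set Dars (4.27 to 4.57), Rars, the arginyl enzyme (5.03 to 5.38), and Eprs (4.47 to 4.82) varied least.

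Other mitochondrial members kept within narrow to moderate bounds. Nars2 (asparaginyl) was at 1.92 to 2.24, Vars2 (valyl) at 2.73 to 3.17 and Ears2 (glutamyl) at 1.54 to 2.16. Iars2 was at 3.98 to 4.54, and its transcripts overlap those of Rab3gap2 on the opposite strand over 2034 bases. Among cytosolic genes Iars has a processed pseudogene, Gm4849, with 96.0% identity over 1656 bases. Aars shares 1326 bases at 100% identity with Exosc6, an overlapping gene on the same strand. Cars shares 214 bases at 100% identity with the processed pseudogene Gm15580, in opposite orientation. Gm4849, Exosc6 and Gm15580 are not among the genes listed, whereas Rab3gap2 is. How reads were divided between these partners and the synthetases is not stated.

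Cytosolic library medians fell apart within groups. In group-housed wild type they were −0.23 in library A, 0.25 in B and 0.12 in C, and in group-housed KO 0.21 in A, −0.22 in B and −0.002 in C. Single-housed KO had −0.18 in A, 0.17 in B and 0.13 in C, whereas the 3 single-housed wild-type libraries were closer together, at 0.01, −0.10 and −0.14. In 3 of the 4 groups the set was thus high in some libraries and low in others under the same label. The mitochondrial medians stayed between −0.06 and 0.07, and those of all genes tested lay within 0.01 of 0. All-gene medians near 0, here and in the comparisons below, follow largely from the equal overall distributions of the libraries. They carry no evidence of their own.

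**Figure D2:**
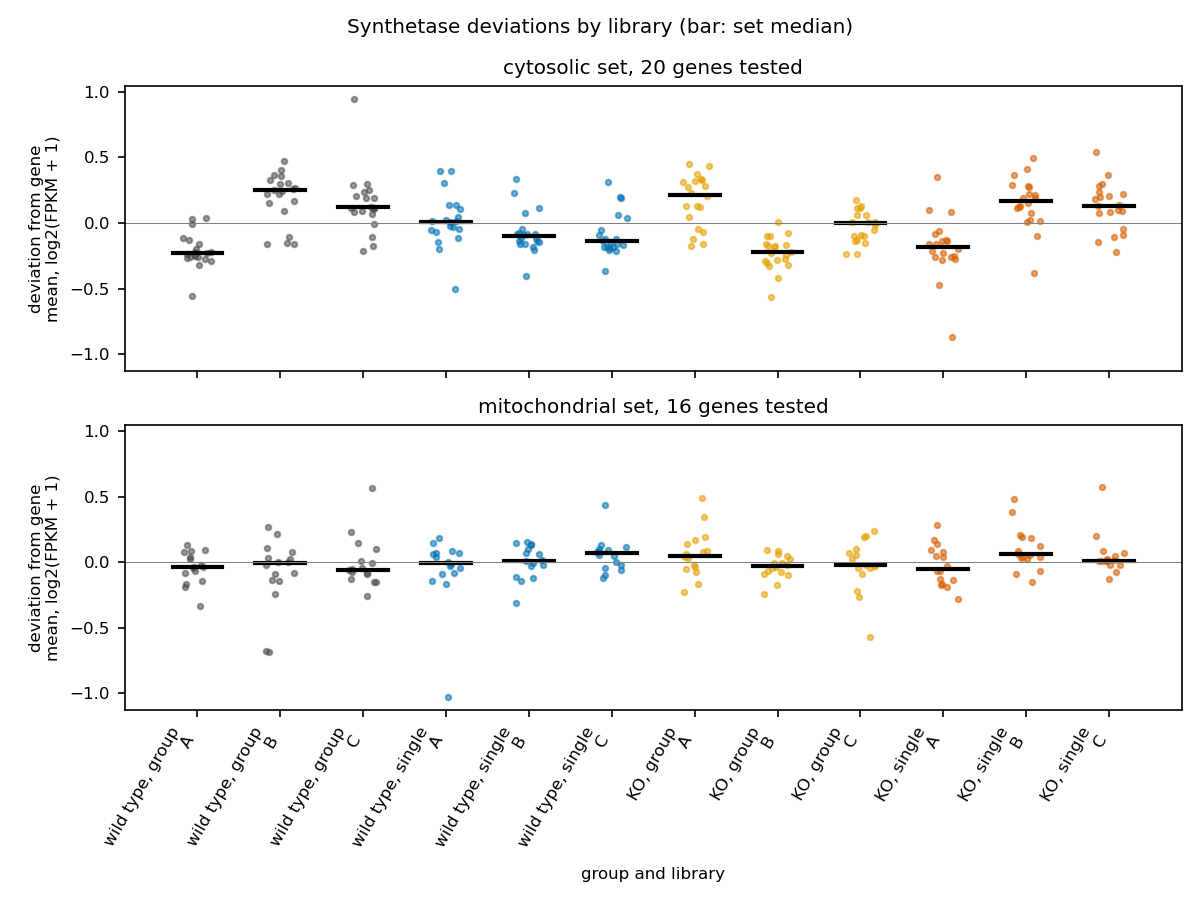
Deviation of each tested synthetase from its mean over the 12 libraries, on the log2(FPKM + 1) scale, by library; points are genes, bars are set medians, and colours are the 4 groups. The cytosolic bars run from −0.23 to 0.25 and differ within groups, whereas the mitochondrial bars lie between −0.06 and 0.07.

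The libraries with high cytosolic synthetases were those with high Asns, the asparagine synthetase gene and a classic ATF4 target. Asns was at 7.31 to 7.46 in 5 libraries, namely group-housed wild type B and C, group-housed KO A and single-housed KO B and C, and at 6.32 to 6.58 in the other 7. These 5 libraries were singled out after the values were seen, so what follows is a description and carries no test. Their cytosolic medians were 0.12 to 0.25, with 15 to 17 of 20 members above their own median, against −0.23 to 0.01 and 0 to 13 members in the other 7. Summed over the 20 genes, cytosolic synthetase RNA was 1381 to 1438 FPKM in the 5 libraries and 1025 to 1206 FPKM in the other 7, with no overlap. The mitochondrial sums overlapped, at 436.6 to 819.9 and 540.2 to 680.5 FPKM. Lars2 alone made up 69.6% to 83.0% of each of these sums, and the 15 other tested members together came to 128.6 to 141.9 and 129.1 to 142.8 FPKM.

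For 11 of the 20 cytosolic genes the 5 highest values were those same 5 libraries, which held for 2.76% of all genes tested: Aars, Cars, Farsb, Gars, Lars, Mars, Nars, Sars, Tars, Wars and Yars. In the mitochondrial set this was true of 1 of 16, Mars2. Among the genes with a promoter match, Aars, Gars, Tars and Yars had this pattern and Iars did not. Farsb, Mars, Sars and Mars2 had the pattern without a match in their windows. Any part of the motif in the pattern was not tested. Nars stood at 8.02 to 8.11 in the 5 libraries and at 7.45 to 7.61 in the other 7. Yars, the tyrosyl enzyme, was at 6.32 to 6.40 and 5.85 to 5.94. Cars, the cysteinyl enzyme, had the widest range of the cytosolic set, with 4.90 to 5.48 against 3.97 to 4.42. Wars, the tryptophanyl enzyme, was at 5.22 to 5.47 against 4.15 to 5.03, the lowest being single-housed KO library A.

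Of the 12 cytosolic members that work outside the multisynthetase complex, 9 had this pattern. Of the 8 inside it (Dars, Eprs, Iars, Kars, Lars, Mars, Qars and Rars) it was found in Lars and Mars, a split that was looked at after the values were seen. Eprs, Iars and Rars inside the complex and Vars outside it missed the pattern by 1 library, sharing 4 of the 5 highest. The median ranges over the 12 libraries were similar, 0.59 outside the complex and 0.64 inside. Mars, the methionyl enzyme, overlaps on the opposite strand Ddit3, an ATF4-driven gene whose own 5 highest values were in the same libraries, and whether the counting used strand is not stated. The scaffold genes Aimp1, Aimp2 and Eef1e1 did not have the pattern, 0 of 3, and their summed levels were 114.4 to 126.3 FPKM in the 5 libraries and 106.4 to 116.0 FPKM in the other 7.

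Qars and Hars went the other way. Their 5 lowest values were in the same 5 libraries, which was true of 2.85% of genes tested. Qars, the glutaminyl enzyme, was at 4.16 to 4.45 there and at 4.46 to 4.84 in the other 7. Hars, the histidyl enzyme, was at 6.13 to 6.20 and at 6.31 to 6.49. Hars shares 195 bases with Hars2 on the opposite strand.

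**Figure D3:**
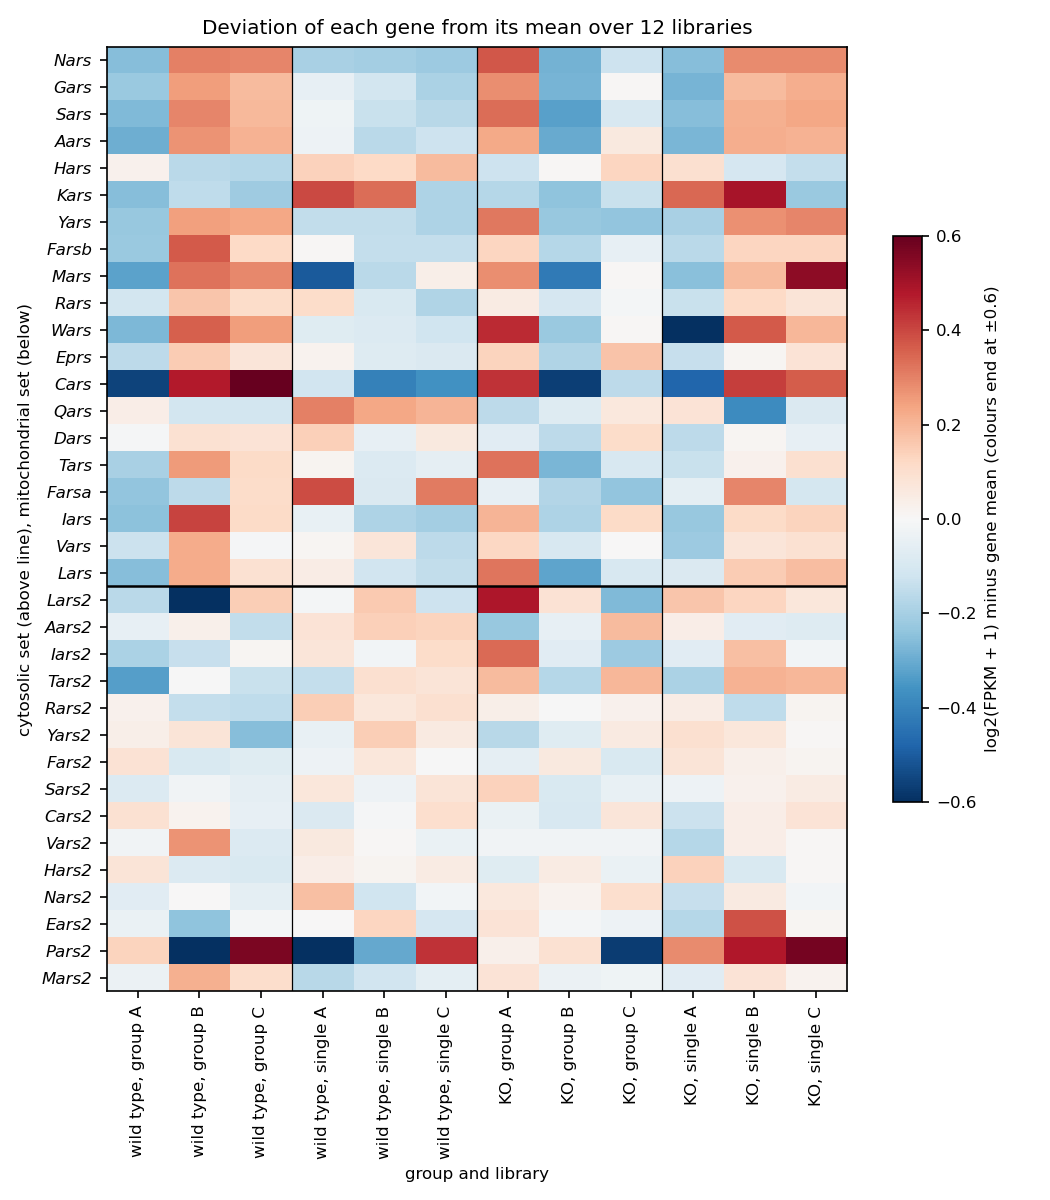
Deviation of each tested synthetase named here (rows) from its mean over the 12 libraries (columns), as log2(FPKM + 1), red above and blue below, with the cytosolic set above the horizontal line; colours end at ±0.6. Most cytosolic rows are red in group-housed wild type B and C, group-housed KO A and single-housed KO B and C, Hars and Qars are blue there, and Kars is red in a different set of 4 columns.

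Among related genes, 24 of the 31 tested members of a list of ATF4 and amino acid response genes also had their 5 highest values in these libraries. The list follows known regulation but was drawn up with earlier results of these data known. Atf4 itself was at 8.23 to 8.46 against 7.34 to 7.59, and Chac1, a glutathione-degrading enzyme induced by ATF4, at 4.82 to 5.15 against 3.28 to 3.63. Asns is a member of this list and defined the libraries. The count was 1 of 7 for cytosolic elongation factors (Eef1a1), 0 of 9 for mitochondrial translation factors and 0 of 12 for other genes of transfer RNA charging and quality control. The list's library medians were 0.39 to 0.63 in the 5 libraries and −0.40 to −0.25 in the other 7.

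**Figure D4:**
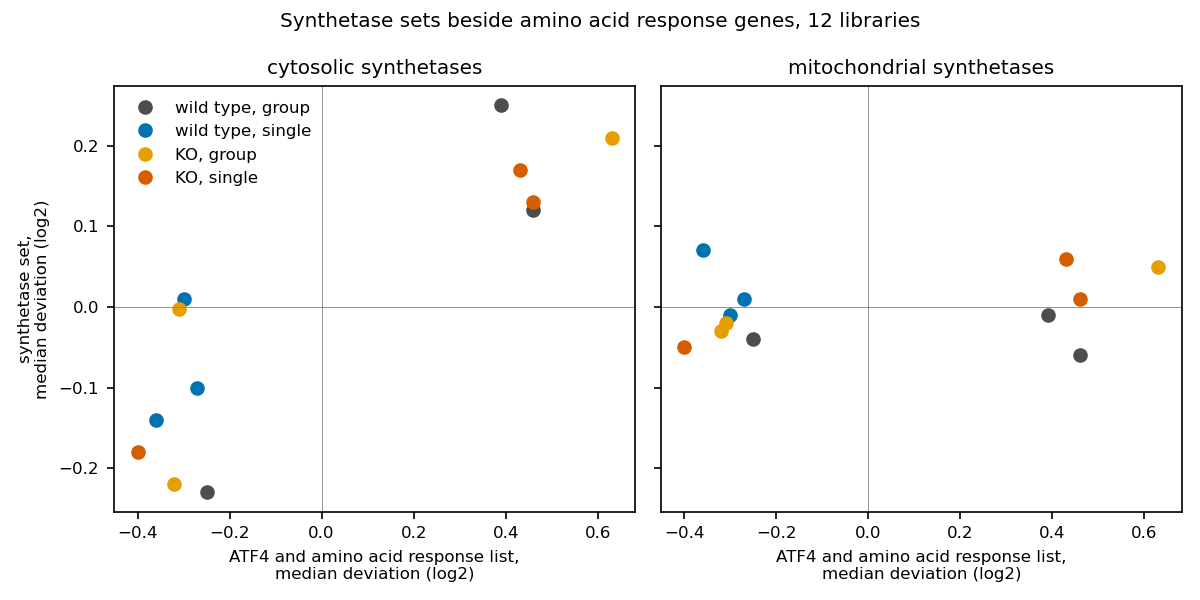
Median deviation of the cytosolic (left) and mitochondrial (right) synthetases in each library against that of the 31 ATF4 and amino acid response genes, both on the log2(FPKM + 1) scale, coloured by group. The 5 libraries at 0.39 or above on the horizontal axis have cytosolic medians of 0.12 to 0.25 and the other 7 of −0.23 to 0.01, with no such separation of the mitochondrial medians.

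Markers of other cells were set beside this split. The summed level of the 7 markers of other interneurons was 651.6 to 774.6 FPKM in the 5 libraries and 354.1 to 560.3 FPKM in the other 7, with Npy at 8.47 to 8.74 and 6.82 to 7.95. Of the 7 markers Npy alone had its 5 highest values in the 5 libraries. The library medians of the 7 markers overlapped, at −0.01 to 0.21 in the 5 libraries and −0.24 to 0.08 in the other 7. The 10 parvalbumin interneuron markers summed to 3789 to 4081 and 3913 to 4146 FPKM, which overlap. Sums for excitatory neurons, astrocytes, oligodendrocytes and microglia overlapped too, as did Cldn5, the 1 endothelial marker of 5 that was tested, at 1.53 to 2.81 FPKM. The part of other interneurons in the synthetase levels was not tested.

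Kars had a pattern of its own. The lysyl enzyme was at 6.46 to 6.62 in single-housed wild type A and B and single-housed KO A and B, and at 5.87 to 5.99 in the other 8 libraries, a gap of 0.47. Of all genes tested, 27 (0.212%) had their 4 highest values in those 4 libraries. Of the 20 tested genes that start within 1000000 bases of Kars on chromosome 8 there were 7, which lie in 1 stretch, with no other tested gene among them except Gm6793, from Cfdp1 (chr8:111768491-111854291) through Tmem231, Gabarapl2, Adat1, Kars (chr8:111993443-112011323) and Terf2ip to Cntnap4 (chr8:112570043-112882717). The 12 tested genes of this neighbourhood before Cfdp1, Aars among them, lacked the pattern, as did Gm6793, whose coordinates fall inside Terf2ip. The neighbours were examined after the Kars values were seen.

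The neighbours described here separated too, with gaps of 0.21 to 0.43. Terf2ip, a telomere-binding protein gene that starts beside Kars, was at 5.49 to 5.64 in the 4 libraries and at 4.91 to 5.06 in the other 8. Cntnap4, a neurexin-family adhesion gene, was at 5.42 to 5.63 and 4.71 to 4.99. Gabarapl2, an autophagy protein gene, was at 7.51 to 7.71 and 6.92 to 7.16. Adat1, which edits a transfer RNA, was at 2.01 to 2.08 and 1.58 to 1.80. Both KO and wild type held 2 of the 4 libraries, and all 4 were single-housed.

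In wild type, single housing was compared with group housing. No synthetase passed the test: 0 of 36 were called, against 0.0393% of all genes tested (limma, Benjamini-Hochberg adjustment, threshold 0.05). At an unadjusted p under 0.05 there were 4 of 36, or 11.1%, against 12.3% of all genes. The median log2 difference was −0.14 over the cytosolic set, with 16 of 20 lower, and 0.08 over the mitochondrial set, with 11 of 16 higher, beside 0.003 over all genes. The cytosolic median was −0.28 without group-housed library A and −0.05 without B, and 2 of the 5 libraries with high Asns are in group-housed wild type and 0 in single-housed wild type. The mitochondrial median was 0.04 without group-housed library C. Of the 7 markers of other interneurons 6 were lower in single housing, with a median of −0.28 and 5 of 7 (71.4%) at an unadjusted p under 0.05; their part in the synthetase differences was not tested.

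The members with the smallest p were Rars2 and Mars2 in the mitochondrial set and Hars, Qars, Kars and Farsa in the cytosolic set. Qars was at 4.58, 4.43 and 4.43 in group-housed and 4.84, 4.77 and 4.74 in single-housed wild type, so that the groups did not overlap, and the difference was 0.30 ± 0.11 (log2 ± SE, adjusted p = 0.307). Hars was at 6.33, 6.14 and 6.13 against 6.44, 6.42 and 6.49, again without overlap (0.25 ± 0.08, adjusted p = 0.298). Both genes were low in the 2 group-housed libraries with high Asns, B and C.

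Rars2, the mitochondrial arginyl enzyme, was at 3.90, 3.73 and 3.72 in group housing and 4.02, 3.94 and 3.97 in single housing (0.19 ± 0.07, adjusted p = 0.295). Mars2, the mitochondrial methionyl enzyme, was at 1.31, 1.56 and 1.45 against 1.18, 1.23 and 1.29 (−0.21 ± 0.08, adjusted p = 0.340). In neither did the groups overlap. The same held for Aars2 here and for KO in single housing, and for Nars2 for KO in group housing. How many of all genes tested lacked overlap is not given here, so absence of overlap is only a description in each comparison. Kars was at 5.87, 5.97 and 5.91 against 6.52, 6.46 and 5.94 (0.39 ± 0.18, adjusted p = 0.424), and library C of the single-housed group was within the group-housed values. It was 0.57 without that library. Farsa, a subunit of the phenylalanyl enzyme, was at 3.88, 3.96 and 4.23 against 4.51, 4.03 and 4.43 (0.30 ± 0.15, adjusted p = 0.437), and these overlap; the difference was 0.45 without single-housed library B.

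Within the libraries labelled KO, the same housing contrast gave 0 of 36 called, against 0.00786% of all genes, and 0 of 36 at an unadjusted p under 0.05, against 4.36%. The median difference was 0.05 for cytosolic genes and 0.02 for mitochondrial genes, with 13 of 20 and 10 of 16 higher. The cytosolic median ran from −0.06 without group-housed library B to 0.20 without single-housed library A. Leaving out 1 library put the mitochondrial median between −0.02 (without group-housed B) and 0.05 (without group-housed A).

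Pars2, the mitochondrial prolyl enzyme, was at 1.71, 1.77 and 1.11 in group-housed KO and at 1.96, 2.16 and 2.25 in single-housed KO. These do not overlap, but the gene spans 0.65 to 2.25 over all libraries and the difference was 0.59 ± 0.38 (adjusted p = 0.995); without group-housed library C it was 0.38. Kars was at 5.95, 5.88 and 5.99 against 6.47, 6.62 and 5.90, a difference of 0.39 ± 0.18 (adjusted p = 0.995) that was 0.24 without single-housed library B and 0.60 without C. Library C again lay within the group-housed values.

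Smaller differences stood at the other members named for this contrast. Farsa was at 4.07, 3.94 and 3.88 against 4.06, 4.41 and 4.01, a difference of 0.20 ± 0.15 that was 0.07 without single-housed library B. Yars2, the mitochondrial tyrosyl enzyme, was at 3.66, 3.75 and 3.88 against 3.92, 3.89 and 3.83 (0.12 ± 0.09), or 0.06 without group-housed library A. In both genes the groups overlapped.

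Yars and Mars spread widely within each group of this contrast. Yars was at 6.40, 5.86 and 5.85 in group-housed and 5.89, 6.36 and 6.38 in single-housed KO (0.17 ± 0.18), high in each of the 3 libraries with high Asns. Leaving out 1 library moved this between 0.07 (without group-housed C) and 0.35 (without group-housed A). Mars was at 5.54, 4.84 and 5.27 against 5.01, 5.45 and 5.80 (0.20 ± 0.25), with 0.01 without group-housed library B and 0.41 without single-housed library A. The adjusted p was 0.995 for Farsa, Yars2, Yars and Mars.

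The effect of the KO label was then taken among group-housed animals. Here 0 of 36 synthetases were called, against 0.0% of all genes, and 0 of 36 had an unadjusted p under 0.05, against 3.66%; the authors' deposited table likewise gave 0 members at an unadjusted p under 0.05. The median differences were −0.07 for cytosolic and 0.02 for mitochondrial genes. The cytosolic median was −0.21 without wild-type library A and 0.04 without KO library B. The mitochondrial one was 0.06 without wild-type library C and 0.07 without KO library B.

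Tars2, the mitochondrial threonyl enzyme, was at 3.59, 3.92 and 3.79 in wild type and 4.11, 3.75 and 4.12 in KO (0.23 ± 0.14, or 0.35 without KO library B and 0.14 without wild-type library A). Rars2 was at 3.90, 3.73 and 3.72 against 3.91, 3.87 and 3.90 (0.11 ± 0.07, or 0.17 without wild-type library A). Hars was at 6.33, 6.14 and 6.13 against 6.18, 6.31 and 6.43 (0.11 ± 0.08), and fell to 0.05 without KO library C or stood at 0.18 without wild-type library A. The groups overlapped in each of these genes.

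Cars was at 3.98, 5.01 and 5.48 in wild type and 4.97, 3.97 and 4.38 in KO, so the groups overlapped widely. Its difference of −0.39 ± 0.38 was −0.81 without wild-type library A and −0.06 without C. Dars, the aspartyl enzyme, was at 4.42, 4.52 and 4.51 against 4.36, 4.27 and 4.54 (−0.10 ± 0.08, or −0.17 without KO library C and −0.04 without KO library B). Farsb, the other subunit of the phenylalanyl enzyme, was at 5.30, 5.89 and 5.64 against 5.65, 5.35 and 5.47 (−0.12 ± 0.14), with −0.27 without wild-type library A and 0.02 without B. The adjusted p of the 6 genes named for this contrast was 1.0 each.

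In single housing 0 of 36 synthetases were called between KO and wild type, against 0.0393% of all genes, and 2 of 36 (5.56%) had an unadjusted p under 0.05, against 7.93%. Both were lower in KO. The median difference was 0.10 for cytosolic genes, with 15 of 20 higher, and −0.01 for mitochondrial genes. The cytosolic median was 0.05 without KO library B and 0.23 without KO library A, and the mitochondrial one −0.03 and 0.02. Of the 5 libraries with high Asns 2 were in KO here, B and C, and 0 in wild type. Of the 7 markers of other interneurons 6 were higher in KO, with a median of 0.18 and 3 of 7 (42.9%) at an unadjusted p under 0.05, and their part was again not tested.

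Qars was at 4.84, 4.77 and 4.74 in wild type and 4.62, 4.16 and 4.45 in KO, without overlap. Its difference of −0.37 ± 0.11 had the smallest p of any member in the 5 comparisons (p = 0.00542, adjusted p = 0.567), and in the authors' deposited table its p was 0.00595. Hars was at 6.44, 6.42 and 6.49 against 6.40, 6.20 and 6.16, also without overlap (−0.20 ± 0.08, adjusted p = 0.621). In both genes KO library A, with low Asns and no Ddx3y signal, was the nearest to wild type, and the values without it were −0.47 and −0.27. They were −0.25 for Qars without KO library B and −0.15 for Hars without C.

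Nars was at 7.54, 7.53 and 7.52 in wild type and 7.48, 8.02 and 8.02 in KO (0.31 ± 0.21, adjusted p = 0.712). Yars was at 5.94, 5.94 and 5.90 against 5.89, 6.36 and 6.38 (0.28 ± 0.18, adjusted p = 0.712). In each, KO library A lay just below the 3 wild-type values and the other KO libraries far above them, so the groups overlapped, and without A the differences were 0.49 and 0.44. Without KO library B the difference was 0.22 for Nars, and without C it was 0.19 for Yars.

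Rars2 was at 4.02, 3.94 and 3.97 against 3.92, 3.72 and 3.89 (−0.13 ± 0.07, adjusted p = 0.638; −0.07 without KO library B), with no overlap. Pars2 was at 0.65, 1.37 and 2.11 against 1.96, 2.16 and 2.25 (0.74 ± 0.38, adjusted p = 0.648). Its wild-type values covered most of the gene's whole range, and the difference was 0.38 without wild-type library A and 1.11 without C.

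The difference between the housing effects in KO and in wild type was tested as an interaction. It called 0 of 36 synthetases, against 0.00786% of all genes, and gave 3 of 36 (8.33%) an unadjusted p under 0.05, against 7.71%. These were Rars2 (−0.24 ± 0.09), Hars (−0.31 ± 0.12) and Qars (−0.37 ± 0.15), each with an adjusted p of 0.646. The cytosolic median was 0.18, with 15 of 20 above 0, and the mitochondrial median −0.04. The cytosolic value was 0.07 without group-housed wild-type library B and 0.30 without single-housed KO library A. The mitochondrial value was −0.11 without single-housed KO library B and −0.01 without group-housed KO library A. The comparisons share groups, so a high or low group enters more than 1 of them.

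**Figure D5:**
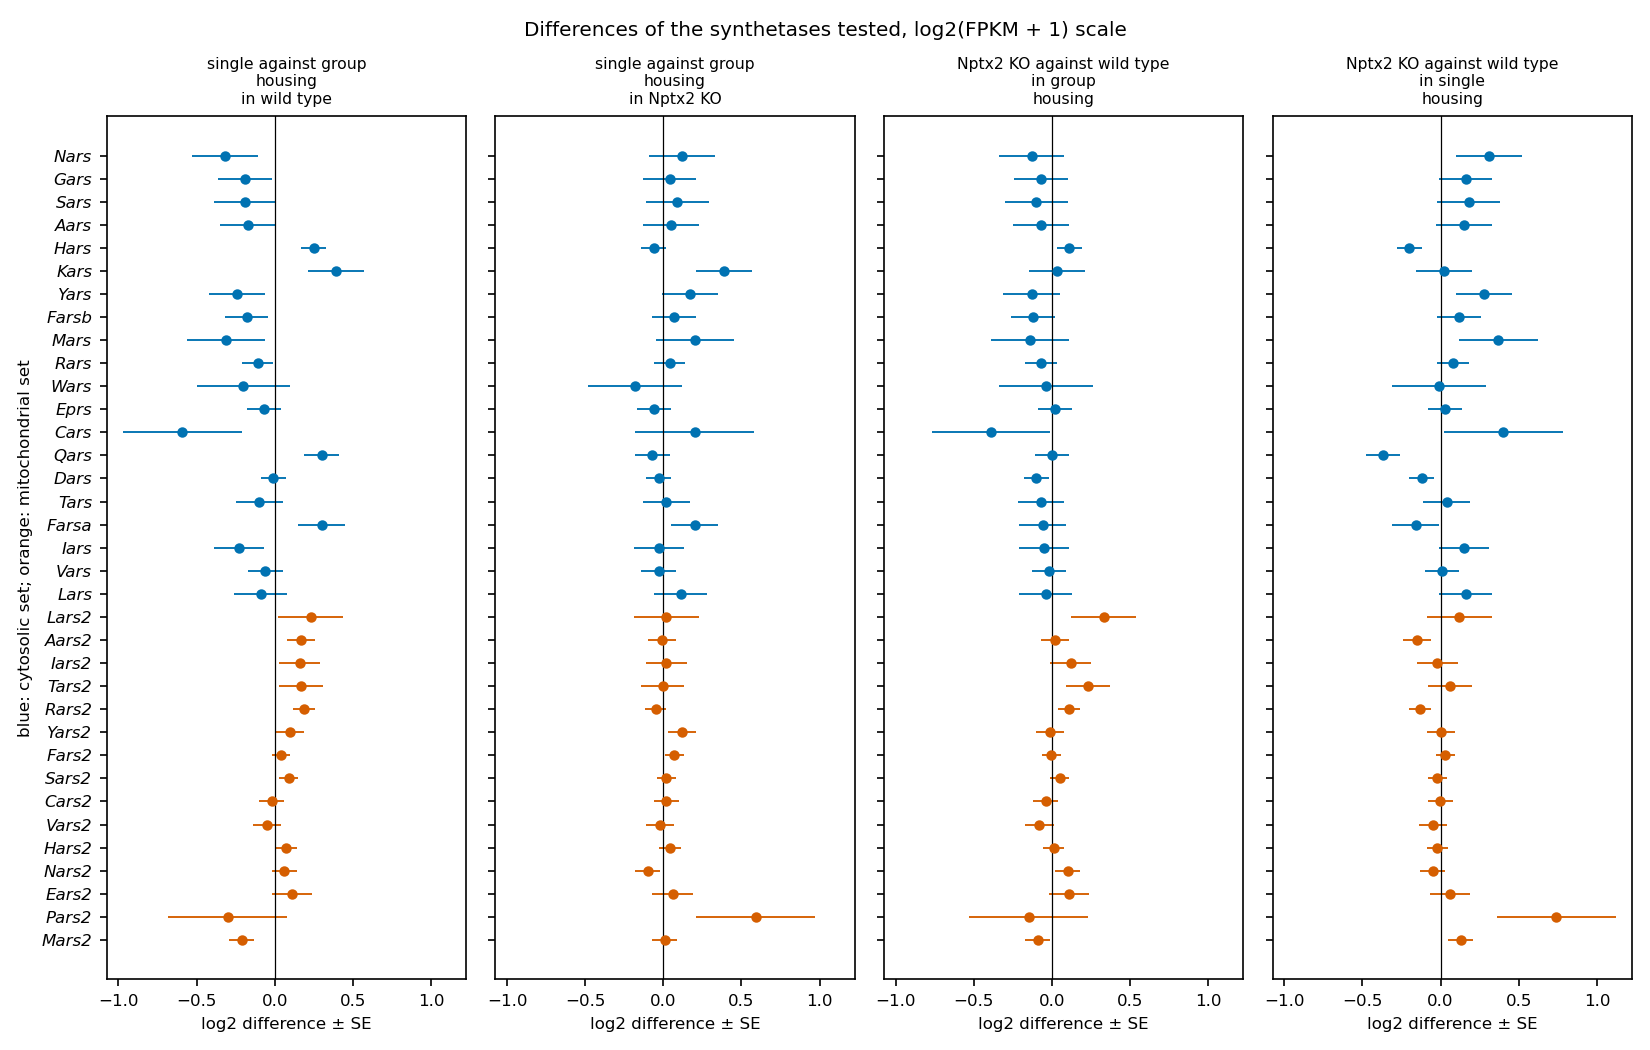
Log2 difference ± standard error of each tested synthetase named here in the 4 comparisons of 2 groups, on the log2(FPKM + 1) scale, from limma; blue is the cytosolic and orange the mitochondrial set, ordered as in the map of deviations. No gene of either set passed the adjusted threshold; Pars2 and Cars have the widest bars, and Hars and Qars lie above 0 for housing in wild type and below 0 for KO in single housing.

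Genes that work with the synthetases did not pass the test in any of the 5 comparisons either. Called were 0 of 3 complex scaffolds and 0 of 12 other charging and quality control genes. The count was 0 of 7 for cytosolic elongation factors and 0 of 9 for mitochondrial translation factors. Of all genes tested, 0.0% to 0.0393% were called in these comparisons. Gatb, a subunit of the mitochondrial amidotransferase that makes glutaminyl-tRNA, was at 0.19 ± 0.09 for housing in wild type and 0.29 ± 0.09 for housing in KO. Tsfm, the mitochondrial elongation factor Ts, was at 0.27 ± 0.12 and 0.20 ± 0.12. Eef1a1, which delivers charged transfer RNA to the ribosome, was at −0.27 ± 0.13 and 0.10 ± 0.13. The adjusted p (limma) for housing in wild type was 0.404 for Gatb and Tsfm and 0.428 for Eef1a1. For housing in KO the adjusted p was 0.995 for each. Of the 31 ATF4 and amino acid response genes 0 were called, while their median was −0.53 for housing in wild type, 0.18 for housing in KO, −0.20 for KO in group housing and 0.54 for KO in single housing. The cytosolic synthetase medians of the same comparisons were −0.14, 0.05, −0.07 and 0.10, and the comparisons share groups.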

How the data were processed

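The authors deposited log2(FPKM + 1) values for each gene in each library. A separate sheet of the deposit holds the p-values, log2 differences and score values (moderated t and F statistics) of their own comparisons, per the file headers. Per the submitters' processing notes, HISAT2, StringTie and limma were used with GRCm38. Their versions, and whether counting used strand, are not given in these sources. The sorted values of the 12 libraries differ by at most 0.0351 log2, so overall distributions were equal before deposit. The columns name a group and a barcode and no replicate number; letters follow column order. Depth is unknown, so values carry no counting interval.

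A mean per group was fitted to all 12 libraries with limma 3.58.1 in R 4.3.3 (moderated statistics with a variance trend, on 8 residual degrees of freedom and 2.18 prior ones), on the 12716 genes that reached 1 FPKM in 3 or more libraries, with Benjamini-Hochberg adjustment over all of them per comparison and a threshold of 0.05. The p-values measure the spread between these libraries, which the labels call biological replicates. Differences on the log2(FPKM + 1) scale understate changes of low genes. The fit was tested on simulated data with independent noise for each gene. These data held no shift shared by the genes of a library. They therefore cannot show how the fit behaves where genes move together by library, as the cytosolic set did. The 37 members were found in GENCODE M21 on GRCm38. Shared stretches were sought with BLAST 2.17.0 (at least 95% identity over 70 bases).

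The members, gene lists and named genes were chosen with earlier results of these data known. Named members are, per comparison, the 4 cytosolic and 2 mitochondrial ones with the smallest p, and the 3 highest and 3 lowest of each set by level. From each related list up to 4 genes with the smallest p per comparison could be named. Cars, Wars, Kars and its neighbours, the pattern shared with Asns and the division by complex membership were described after their values were seen. Alternatives were a pseudocount of 0.1, other filters, no variance trend, the compared groups alone, median centring, a term for Y-linked signal, leaving out each library, the cytosolic set without its dual genes and means in place of medians. Of the mitochondrial set 1 member, included in the counts, medians and sums, is not reported here by name.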

Additional observations from a re-analysis of the deposited data

How the results depend on the processing

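No synthetase was called in any comparison in any of the 94 combinations of comparison and alternative setting (19 settings, of which 12 leave out 1 library). Among the set medians 193 alternative values moved by less than the spread and 10 by more. The pooled within-group SD of the cytosolic library median, 0.195, exceeded the size of every cytosolic median difference. Such a median could therefore change sign without counting as moved. For KO in group housing it went from −0.07 to 0.04 without KO library B. For the levels by library the counts were 79 and 5, and among named members 451 values kept their direction and 3 did not. A term for Y-linked signal gave medians of −0.41 (cytosolic) and −0.04 (mitochondrial) for housing in wild type and −0.17 and −0.05 for housing in KO, and reversed Yars (−0.15) and Mars (−0.21) for housing in KO. By construction that term rests on single-housed KO library A against B and C alone: the KO values are library A minus the group-housed mean, and those in wild type carry the same contrast over, so they say nothing of Y-linked signal. Leaving out 1 library put the mitochondrial median between 0.02 and 0.07 for KO in group housing and between −0.11 and −0.01 for the interaction, and Farsb for KO in group housing between −0.27 and 0.02. With the mean in place of the median the mitochondrial set was at 0.04 for KO in single housing and, by library, at −0.09 and −0.003 in group-housed wild type B and C, −0.06 in single-housed wild type A and 0.10 in single-housed KO B. A pseudocount of 0.1 put group-housed KO A at 0.09. For changes other than those of the Y-linked term the cause was not tested. Calls over all genes were 5, 1, 0 and 5 in the 4 comparisons of 2 groups (housing in wild type and KO, KO in group and single housing), 8, 16, 8 and 9 in fits of the compared groups alone and 24, 17, 1 and 9 with the Y-linked term. Leaving out 1 library put them at 1 (without single-housed KO B or C) to 12 (single-housed KO A), 1 to 8 (group-housed wild type A), 0 to 11 (group-housed wild type A) and 5 to 9 (single-housed wild type C or KO A). Genes at an unadjusted p under 0.05 numbered 554 for housing in KO, or 1049 without group-housed KO A, and 1008 for KO in single housing, or 1724 without single-housed KO A. No paired analysis was possible because the columns carry no replicate numbers. With 3 libraries a group, differences within the spread of the cytosolic set (median SD 0.222) could not be told from 0. Larger ones were not called either, such as −0.59 ± 0.38 for Cars and 0.39 ± 0.18 for Kars for housing in wild type. The SD is therefore no limit of detection, and larger changes are not excluded. Values of members near 1 FPKM, such as Pars2, are imprecise.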
